A study of Homo sapiens with 2 samples.

Results

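Levels of messenger RNA were described for the amino acid transporter genes of the solute carrier (SLC) families 1, 3, 6, 7, 36, 38 and 43. The genes were taken by symbol, with no use of their values. The table listed 47 of them among 18083 symbols that had a single row, and no member was lost for having several rows. Of 59 such genes in GENCODE release 29, the other 12 were not listed: SLC1A7, SLC6A2, SLC6A3, SLC6A5, SLC6A7, SLC6A18, SLC6A19, SLC7A13, SLC7A14, SLC36A3, SLC38A8 and SLC38A11. Not every family member carries amino acids across the plasma membrane. SLC6A8 carries creatine, and the 9 annotated SLC6 carriers of monoamines, GABA and glycine were kept as a neurotransmitter contrast, of which 6 were listed.

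The cells were U2OS, an established human osteosarcoma line labelled as bone tissue. They grew asynchronously in medium with fetal bovine serum and received 0.3 µM aphidicolin, an inhibitor of the replicative DNA polymerases, for 18 h. Polyadenylated RNA was sequenced in 2 libraries, which form 1 group. Whether separate cultures were used is not stated in the labels. The SDs then measure only how these libraries varied, a spread that may be technical. The p-values set the difference between these libraries against counting error alone. Untreated cells were not analysed here. All values are therefore levels under aphidicolin and not responses to it, and in bulk RNA fewer cells that use a gene and less RNA per cell cannot be told apart. The libraries held 13227805 and 13020149 reads. The mesenchymal markers SPARC, VIM and COL1A1 stood at 279.9, 249 and 209 RPKM, and of the 8 osteoblast and mesenchymal markers only BGLAP was below 1 RPKM. Markers of other cells passed 1 RPKM in 5 of 8 cases for neurons, 4 of 5 for epithelium, 1 of 5 for blood, 0 of 4 for endothelium and 0 of 1 for hepatocytes.

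Amino acids cross membranes through carriers that differ in what drives them. Some SLC1, SLC6 and SLC38 proteins couple uptake to the sodium gradient and load the cell. Some SLC36 proteins use protons, and many SLC7 proteins exchange 1 amino acid for another. The SLC7 light chains reach the cell surface only when they are linked to a heavy chain, SLC3A2 (also called CD98) or SLC3A1. Several of these genes are known targets of ATF4, the transcription factor that acts when amino acids run short, and carriers on the lysosome feed the sensing of amino acids by the kinase complex mTORC1.

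Sequences are shown for 4 members with 1 annotated start each, because they set high and low levels beside unlike promoter composition. SLC7A5 and SLC7A1 were among the 5 highest members, and SLC6A20 and SLC7A9 had at most 4 reads in a library. Each line gives the 250 bases before the RefSeq start (GRCh38.p14), 5′ to 3′ on the strand of the gene, with CpG dinucleotides in capitals. None of these windows holds an exonic base of GENCODE. The windows lie on the minus strand at chr16:87869508-87869757 (SLC7A5), chr13:29595689-29595938 (SLC7A1), chr3:45796537-45796786 (SLC6A20) and chr19:32869768-32870017 (SLC7A9). They hold 34, 43, 27 and 3 CpG dinucleotides.
SLC7A5: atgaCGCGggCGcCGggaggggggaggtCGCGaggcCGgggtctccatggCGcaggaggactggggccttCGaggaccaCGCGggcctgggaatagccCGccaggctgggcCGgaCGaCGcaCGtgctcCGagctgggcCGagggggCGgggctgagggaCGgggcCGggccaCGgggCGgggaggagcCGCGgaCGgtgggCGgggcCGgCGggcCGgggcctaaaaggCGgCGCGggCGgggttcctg
SLC7A1: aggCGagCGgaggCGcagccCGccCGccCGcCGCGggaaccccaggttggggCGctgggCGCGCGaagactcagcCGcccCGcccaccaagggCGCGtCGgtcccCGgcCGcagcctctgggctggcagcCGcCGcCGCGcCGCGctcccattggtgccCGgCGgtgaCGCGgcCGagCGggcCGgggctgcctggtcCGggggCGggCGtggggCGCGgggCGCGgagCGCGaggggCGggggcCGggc
SLC6A20: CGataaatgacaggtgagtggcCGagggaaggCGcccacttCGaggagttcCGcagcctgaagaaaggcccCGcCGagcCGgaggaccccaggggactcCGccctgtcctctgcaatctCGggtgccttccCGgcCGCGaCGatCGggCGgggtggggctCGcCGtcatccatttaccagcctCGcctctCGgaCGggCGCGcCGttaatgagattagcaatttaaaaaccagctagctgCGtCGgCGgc
SLC7A9: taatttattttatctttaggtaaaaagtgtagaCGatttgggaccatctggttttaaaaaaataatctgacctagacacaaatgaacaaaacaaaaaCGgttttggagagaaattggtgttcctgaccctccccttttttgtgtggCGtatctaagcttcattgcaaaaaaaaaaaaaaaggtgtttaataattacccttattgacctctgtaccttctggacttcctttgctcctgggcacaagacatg

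A few carriers of neutral and cationic amino acids held most of the summed level. RPKM scales reads by exonic length and by library size, which puts genes on a common scale. The length was near that of all annotated exons joined. Where cells use a shorter transcript, RPKM understates the level, and transcripts were not measured here. SLC38A2, SLC7A5 and SLC1A5 together made up 50.1% of the RPKM summed over the 47 members in replicate 1 and 49.6% in replicate 2. With SLC3A2 and SLC7A1 the share was 62.7% and 62.5%, and the 10 highest members held 78.3% and 77.8%. At least 1 RPKM in both libraries, about 26.5 and 26.0 reads for a gene with 2 kb of exon, was taken as expressed. By that level 28 of 47 members (59.6%) were expressed, against 66.7% of all 17912 entries and 147 of 236 other SLC genes (62.3%). At 1 CPM in both libraries, where reads are scaled by library size and not by length, 35 members (74.5%) passed, against 78.1% of all entries. Median levels were 3.14 RPKM for the members, 3.53 for all entries and 2.55 for the other SLC genes. No test of these differences was made. The highest member had 95.6 RPKM, and 8 members stood under 0.1 RPKM. Just inside the level were SLC6A11 (1.58 and 1.48 RPKM in replicates 1 and 2) and SLC7A8 (2.20 and 2.40), and just outside were SLC43A2 (1.24 and 0.934) and SLC38A4 (0.930 and 0.889).

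**Figure D1:**
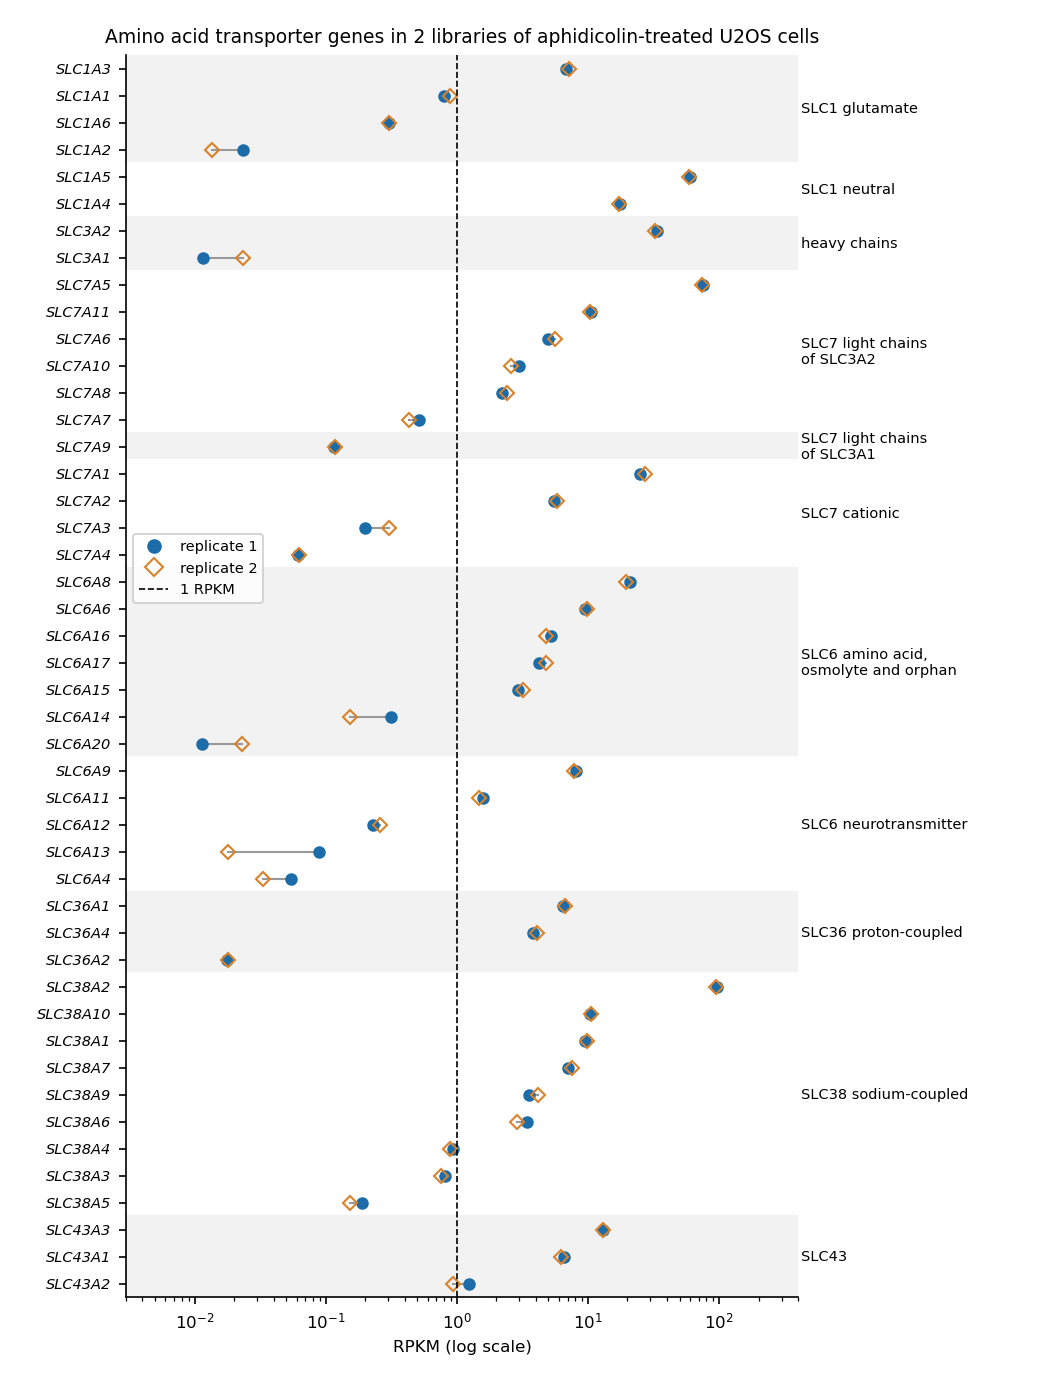
RPKM of listed members on a log axis, grouped by family and role, with a filled circle for replicate 1 and an open diamond for replicate 2; the dashed line marks 1 RPKM. In most groups 1 or 2 genes stand well above their relatives, from SLC38A2 at 95.6 RPKM down to SLC6A20 at 0.0172, and the libraries lie close together except for genes of few reads.

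The sodium-coupled neutral carriers of SLC38 were led by SLC38A2, which takes up small neutral amino acids such as alanine and glutamine. It was the highest member, at 96.6 RPKM in replicate 1 and 94.5 in replicate 2 (8319 and 8012 reads), and lies on chromosome 12 from 46358189 to 46372867. Its mean was 95.6 ± 1.5 RPKM (SD, n = 2), and it ranked 270 of 17912 entries. Its relative SLC38A1, also a glutamine carrier, stood at 9.58 and 9.89 RPKM. SLC38A2 was thus 10.1 times SLC38A1 in replicate 1 (95% counting interval 9.51 to 10.7) and 9.56 times in replicate 2 (9.02 to 10.1). SLC38A10 was close to SLC38A1, at 10.3 and 10.5 RPKM.

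Carriers of the lysosome were present at moderate levels. SLC38A7, which exports glutamine and asparagine from lysosomes, had 7.09 and 7.51 RPKM. SLC38A9, the lysosomal arginine sensor that acts on mTORC1, had 3.53 and 4.17 RPKM. SLC36A1, a proton-coupled exporter of small amino acids, had 6.47 and 6.63 RPKM, and its relative SLC36A4 had 3.83 and 4.12. These 4 genes were expressed, with no overlap between SLC38A7 and SLC38A9 or between SLC36A1 and SLC36A4. SLC38A6, a relative with no settled substrate, was at 3.41 and 2.88 RPKM. Of the remaining SLC38 genes, SLC38A4 and the glutamine carriers SLC38A3 (0.819 and 0.755) and SLC38A5 (0.188 and 0.153) were below 1 RPKM. SLC36A2 had 1 read in each library.

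In SLC1 the neutral carriers were high and the glutamate carriers mostly low. SLC1A5 (ASCT2), an exchanger that brings in glutamine, stood at 59.9 and 59.5 RPKM (mean 59.7 ± 0.33, SD, n = 2) on chromosome 19 from 46774883 to 46788594. SLC1A4 (ASCT1), which exchanges serine, alanine and cysteine, stood at 17.6 and 17.1. SLC1A5 was 3.41 times SLC1A4 in replicate 1 (95% counting interval 3.20 to 3.62) and 3.47 times in replicate 2 (3.26 to 3.70). Of the SLC1A5 exonic bases 23.8% are shared with other annotated genes. Among the glutamate carriers, SLC1A3 (EAAT1) was expressed, at 6.79 and 7.20 RPKM. SLC1A1 (EAAT3) was near the level at 0.799 and 0.889, and SLC1A6 (EAAT4) was at 0.307 and 0.301. SLC1A2 (EAAT2), the main glutamate carrier of astrocytes, had 7 and 4 reads, or 0.0232 and 0.0135 RPKM. Thus 1 of 4 listed glutamate carriers was expressed (25%, against 66.7% of all entries). At 1 CPM in both libraries 3 of 4 passed, against 78.1% of all entries.

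In RPKM, the heavy chain gene SLC3A2 was lower than the light chain gene SLC7A5 alone. SLC3A2, on chromosome 11 from 62856102 to 62888875, stood at 33.4 and 32.3 RPKM (mean 32.8 ± 0.77, SD, n = 2). SLC7A5 (LAT1), which exchanges large neutral amino acids such as leucine, stood at 74.9 and 73.9 RPKM (mean 74.4 ± 0.76, SD, n = 2) on chromosome 16 from 87830023 to 87869488. SLC7A5 was 2.25 times SLC3A2 in replicate 1 (95% counting interval 2.14 to 2.36) and 2.29 times in replicate 2 (2.17 to 2.41). The 6 listed light chain partners of SLC3A2 summed to 96.1 and 95.1 RPKM, so that SLC3A2 came to 0.347 and 0.339 of their sum. SLC7A5 supplied 78.0% and 77.6% of that sum. These are ratios of messenger RNA and give no ratio of proteins. They rest on 5178 exonic bases for SLC3A2 and 4764 for SLC7A5, from all annotated exons. The transcripts in use were not measured, and the counting intervals do not cover that uncertainty.

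SLC7A11 (xCT), which brings in cystine in exchange for glutamate, was the next light chain, at 10.5 and 10.3 RPKM. It made up 10.9% and 10.8% of the partners' sum, and SLC7A5 was 7.14 and 7.16 times as high. SLC7A6, an exchanger of cationic for neutral amino acids, stood at 4.95 and 5.57 RPKM. Its exonic bases are shared to 55.6% with other genes, SLC7A6OS among them, and without the use of strand being known its reads cannot be told from theirs. SLC7A10, a carrier of small neutral amino acids, was at 2.96 and 2.57, and SLC7A8 (LAT2) was at 2.20 and 2.40. SLC7A5 was 34.1 and 30.8 times SLC7A8, which carries similar amino acids. SLC7A7, the counterpart of SLC7A6, was below the level at 0.516 and 0.434 RPKM. Of the 6 partners 5 were expressed (83.3%, against 66.7% of all entries). The heavy chain SLC3A1, known from kidney and gut, had 1 and 2 reads, and its partner SLC7A9 had 4 reads in each library. Of the exonic bases of SLC3A1, 54.6% are shared with another gene, PREPL among them.

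**Figure D2:**
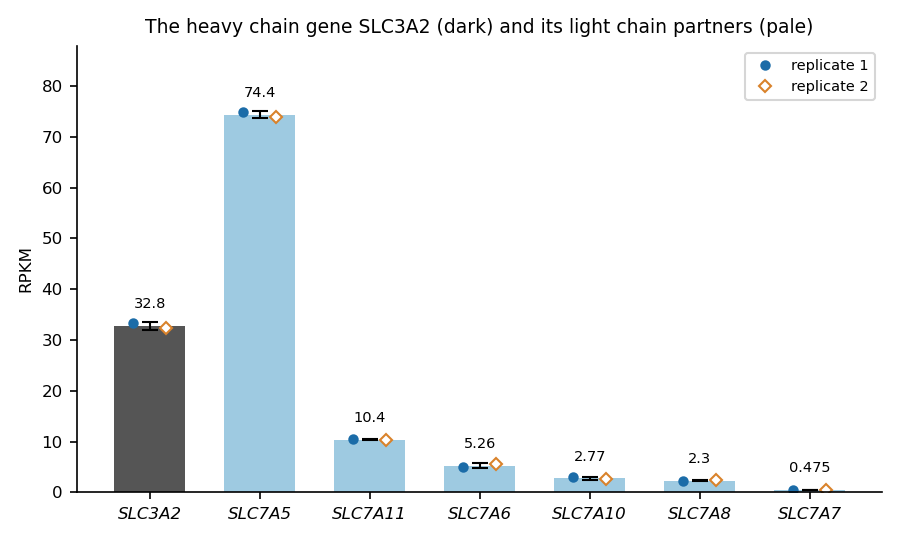
Mean RPKM of SLC3A2 and its 6 listed light chain partners (bars from 0, with SD over 2 libraries), with each library as a point. SLC7A5 at 74.4 RPKM stands above SLC3A2 at 32.8, and the other partners run from 10.4 down to 0.475.

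In the cationic group of SLC7, which was set by family, the known carriers take up arginine, lysine and ornithine without a heavy chain. SLC7A1 (CAT1) led them at 24.97 and 27.0 RPKM (mean 25.98 ± 1.4, SD, n = 2), on chromosome 13 from 29509410 to 29595688. SLC7A2 (CAT2) stood at 5.49 and 5.78 RPKM, so that SLC7A1 was 4.55 times as high in replicate 1 and 4.67 times in replicate 2. SLC7A3 (6 and 9 reads) and SLC7A4 (2 reads in each) were below the level. In SLC43, whose first members carry large neutral amino acids without an ion gradient, SLC43A1 (LAT3) had 6.56 and 6.21 RPKM. SLC43A2 (LAT4) was lower, and SLC43A1 was 5.29 and 6.65 times its level. SLC43A3, a carrier of purine nucleobases, was the highest of SLC43 at 13.04 RPKM in both libraries. It shares 29.9% of its exonic bases with AP000781.2.

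Of the SLC6 carriers of amino acids and osmolytes and their orphan relatives, 5 of 7 listed genes (71.4%) were expressed. The share over all entries was 66.7%. The creatine carrier SLC6A8 was highest of the 13 listed SLC6 genes, at 20.9 and 19.5 RPKM on chromosome X. It has a near-identical pseudogene, SLC6A10P, which had 18 and 21 reads, so reads of both are uncertain. The taurine carrier SLC6A6 stood at 9.50 and 9.75 RPKM. SLC6A16, which has no settled substrate, had 5.24 and 4.79 RPKM, and SLC6A17, a carrier of synaptic vesicles for neutral amino acids, had 4.20 and 4.79. SLC6A15, a sodium-coupled carrier of branched-chain amino acids and proline, had 2.93 and 3.19 RPKM. Below the level were SLC6A14, a broad neutral and cationic carrier (19 and 9 reads), and SLC6A20, a carrier of proline (1 and 2 reads).

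Of the neurotransmitter contrast, 2 of 6 listed genes were expressed (33.3%, against 66.7% of all entries). At 1 CPM in both libraries 3 of 6 passed, against 78.1% of all entries. SLC6A9 (GlyT1), a glycine carrier found on glia and on many other cells, led at 8.12 and 7.79 RPKM. The GABA carrier SLC6A11 (GAT3) followed at 1.58 and 1.48. SLC6A9 was 5.12 and 5.25 times SLC6A11. SLC6A12, which carries betaine and GABA, had 16 and 18 reads. The GABA carrier SLC6A13 (5 and 1 reads) and the serotonin carrier SLC6A4 (5 and 3 reads) were under the read minimum of the main test between libraries. These genes were not tested against each other. The noradrenaline, dopamine and neuronal glycine carrier genes SLC6A2, SLC6A3 and SLC6A5 were not listed. The median of the contrast was 0.150 RPKM, and that of the 41 other members, 26 of them expressed, was 3.98. The contrast held 2.18% and 2.09% of the members' summed RPKM, most of it from SLC6A9. Of 8 neuronal markers, 5 reached 1 RPKM, from NEFL at 16.1 and SNAP25 at 5.73 down to TUBB3 at 1.57 RPKM, while RBFOX3, ELAVL4 and STMN2 were below it, STMN2 at 1 and 2 reads. The 8 markers summed to 30.2 and 28.96 RPKM. Their part in the level of SLC6A9 and SLC6A11 was not tested.

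Some relatives that lie close together on a chromosome had unlike levels. Neighbouring genes at large were not compared. On chromosome 12, SLC38A1 (46183063 to 46270017), SLC38A2 and SLC38A4 (46764761 to 46832408) lie on the minus strand, at 9.73, 95.6 and 0.910 RPKM. On chromosome 5, SLC36A1 (151437046 to 151492381) stood at 6.55 RPKM and SLC36A2 (151314978 to 151347590) at 0.0178. On chromosome 14, SLC7A8 (23125295 to 23183674) stood at 2.30 and SLC7A7 (22773222 to 22829820) at 0.475. The pair SLC6A12 and SLC6A13 on chromosome 12 was low in both members, at 0.245 and 0.0536 RPKM. SLC43A3 (57406954 to 57427580) and SLC43A1 (57484534 to 57515786) on chromosome 11 were both expressed, at 13.04 and 6.38 RPKM. All 47 members are annotated as protein-coding.

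In the order of the means, the 8 highest members (SLC38A2, SLC7A5, SLC1A5, SLC3A2, SLC7A1, SLC6A8, SLC1A4 and SLC43A3) were separate from each other, in that the values of neighbours did not overlap between the libraries. SLC7A11 and SLC38A10 overlapped, as did SLC38A1 and SLC6A6, SLC38A7 and SLC1A3, and SLC36A1 and SLC43A1. Over the whole order 26 of 46 neighbouring pairs were separate and 20 overlapped.

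The libraries gave like values for the members. Of the 28 expressed members 23 were within 1.1-fold between the libraries, and the median absolute log2 ratio was 0.08, against 0.07 over all expressed entries. A 2-sided exact binomial test on reads recovered from the RPKM compared the libraries, not conditions, with Benjamini-Hochberg adjustment over 15773 entries. It called 0 of 39 members tested at an adjusted p of 0.05, against 1.25% of all entries, and the other 8 members had under 10 reads. At an unadjusted p of 0.05 it called 4 of 39 members, against 10.4% of all entries. Counting error alone would call a share of about 0.05. Over all entries the libraries thus varied beyond counting error, which the counting SEs and intervals leave out. SLC7A1 had the lowest adjusted p, 0.119, from 2539 and 2703 reads. Its log2 ratio, with replicate 2 in the numerator, was 0.12 ± 0.04 (SE from counting error). SLC38A9 had the largest absolute ratio among expressed members, 0.25 ± 0.10, with 412 and 479 reads. SLC43A2, with 174 and 129 reads and a log2 ratio of -0.40 ± 0.17 (adjusted p = 0.325 by the exact binomial test), crossed 1 RPKM in replicate 1 and not in replicate 2. With scaling by library totals or by the median of ratios, the test called 0 members as well and 3 at an unadjusted p of 0.05.

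**Figure D3:**
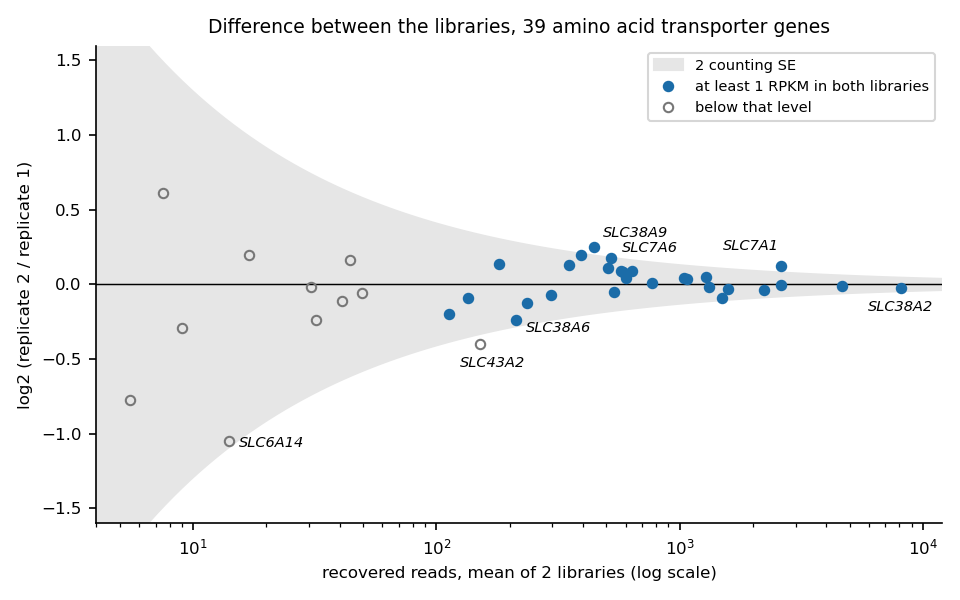
Log2 ratio of replicate 2 over replicate 1 against recovered reads (log axis) for the 39 members tested; filled points are expressed, open points are not, and the grey band is 2 counting SE around 0. SLC7A1, SLC38A9, SLC7A6 and SLC43A2 lie outside the band or at its edge, and 0 of 39 passed the adjusted test.

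Most listed genes of amino acid biology were expressed. Over 8 lists of amino acid biology, 98 of 117 listed genes reached 1 RPKM in both libraries (83.8%, against 66.7% of all entries). In the list for the response to amino acid shortage 17 of 19 genes were expressed. It was led by ATF4 at 123 RPKM (122.8 and 124.1), the kinase gene EIF2AK1 at 83.1 and CEBPB at 29.04. The list also holds the kinase genes EIF2AK4 (13.1 and 13.6 RPKM), EIF2AK2 (mean 16.1) and EIF2AK3 (mean 6.59). Not all of these kinases, EIF2AK1 among them, are specific to amino acid shortage. Among the ATF4 targets, the sestrin gene SESN2 stood at 12.6 RPKM, TRIB3 at 9.18, CHAC1 at 6.61 and DDIT3 at 5.97. The exceptions were STC2 at 0.187 RPKM and ASNS, which makes asparagine and is a known target of ATF4. ASNS stood at 0.618 and 0.878 RPKM (35 and 49 reads), below the level in both libraries.

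Synthesis of serine, glycine and proline was expressed in 12 of 13 cases, led by MTHFD2 at 64.0 RPKM, SHMT2 at 39.4 and PYCR1 at 38.4. The exception was the glycine decarboxylase gene GLDC, at 10 and 17 reads. MTHFD1 differed between the libraries, with 5216 and 5570 reads and a log2 ratio of 0.13 (adjusted p = 0.00145 by the exact binomial test). Glutamine and glutamate metabolism was expressed in 11 of 13 cases, led by GOT2 at 85.1 RPKM, GOT1 at 40.9 and CAD at 31.3. The liver-type glutaminase gene GLS2 had 3 and 1 reads, and the alanine transaminase gene GPT was at 0.594 RPKM. CTPS1, which makes CTP with nitrogen from glutamine, was the list member that differed between the libraries, with a log2 ratio of 0.16 (adjusted p = 0.00778 by the exact binomial test).

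The cystine that SLC7A11 brings in feeds glutathione. In the list for cystine, glutathione and the antioxidant transcription factor NRF2, 12 of 13 genes were expressed. Not all of them act on glutathione. GPX4, the peroxidase that uses glutathione on lipids, led at 112 RPKM, followed by TXNRD1 at 50.03 and NQO1 at 44.5. TXNRD1 differed between the libraries, with a log2 ratio of 0.12 (adjusted p = 0.0131 by the exact binomial test). GCLC and GCLM, the subunits of the first enzyme of glutathione synthesis, stood at 10.04 and 9.70 RPKM, near SLC7A11. CBS, of the route from methionine to cysteine, was below the level at 0.309 RPKM, while CTH of the same route stood at 5.72.

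The list for the sensing of amino acids by mTORC1 also holds genes that are not sensors, TFE3 among them. Of its genes, 25 of 27 were expressed, led by RRAGA at 49.2 RPKM, TFE3 at 46.9 and LAMTOR1 at 32.8. The exceptions were the arginine sensor gene CASTOR1 at 0.194 RPKM and DEPDC5 at 0.886. CASTOR2 stood at 4.15 RPKM and SLC38A9 at 3.85. Breakdown of branched-chain amino acids was expressed in 7 of 8 cases, led by BCAT1 at 20.4 RPKM, DLD at 18.5 and BCKDK at 13.8, with BCKDHA at 0.806 and 1.13 on either side of the level. Other amino acid carriers were expressed in 12 of 15 cases, led by the mitochondrial carriers SFXN1 at 20.9, SLC25A13 at 14.8 and SLC25A38 at 13.9 RPKM. SLC15A3, the aromatic amino acid carrier SLC16A10 and the vesicular GABA carrier SLC32A1 were below the level, from 0.603 to 0.135 RPKM. Synthesis and vesicle loading of neurotransmitters was expressed in 2 of 9 listed cases, SLC17A7 at 3.96 and SLC18A2 at 2.45 RPKM. The other 7 listed genes (TPH1, GAD1, DBH, SLC18A3, CHAT, GAD2 and DDC) ran from 0.745 down to 0.0619 RPKM, and TH, PNMT, TPH2, SLC17A6, SLC17A8 and SLC18A1 were not listed.

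**Figure D4:**
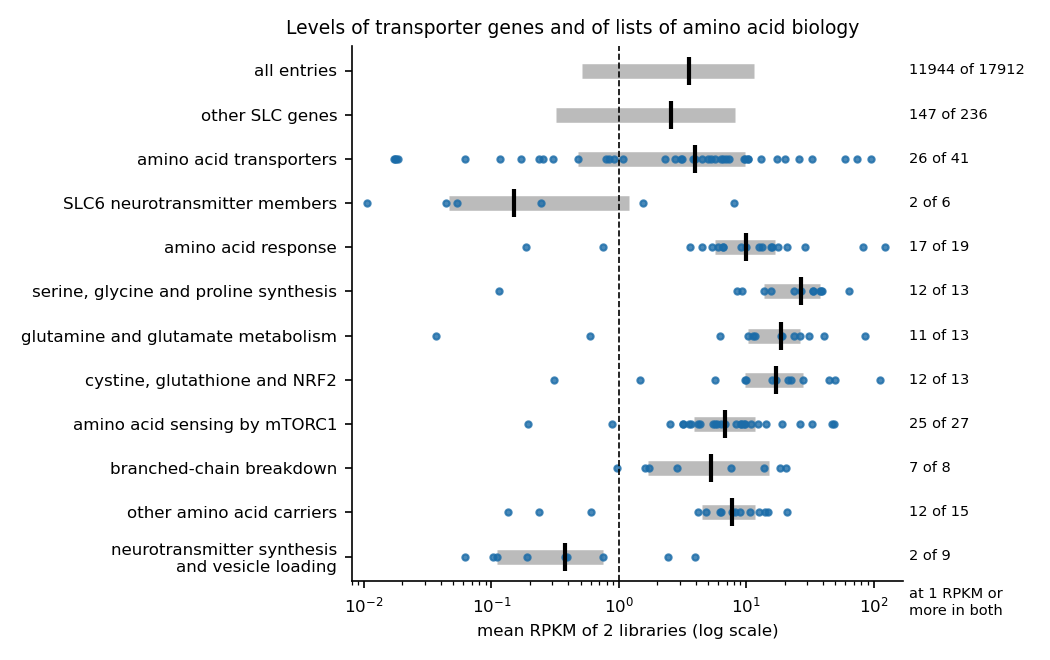
Mean RPKM of each gene (points), with the median (black bar) and the middle 50% (grey) of each list, on a log axis; the numbers at the right count genes at 1 RPKM or more in both libraries, and all entries and other SLC genes are shown without points. Medians run from 0.150 RPKM for the SLC6 neurotransmitter members to 26.9 for serine, glycine and proline synthesis.

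Promoter windows of the 250 bases before a RefSeq start were found for 35 members with 57 starts, and 12 members had no entry, among them SLC43A3, SLC7A11, SLC6A6, SLC7A2, SLC6A15, SLC38A3, SLC7A3, SLC6A12, SLC7A4, SLC1A2 and SLC3A1. Which start was used in these cells was not measured. The 40 windows of 23 expressed members held a median of 18.5 CpG dinucleotides, and the 17 windows of 12 members below the level held 10. Over all listed genes these medians were 20 and 10. The sequences shown at the start of the results hold both kinds of case. SLC7A1 had 43 CpG dinucleotides, the most of any member window, and 26.0 RPKM. SLC6A20 had 27, 1 more than SLC38A2 with 26, yet it stood at 0.0172 RPKM against 95.6. SLC6A4 likewise had 29 at 0.0436 RPKM, whereas SLC7A9 had 3 at 0.117 RPKM. Some expressed members had few, such as SLC6A9 with 9 in its only window.

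Motifs were searched on both strands in the same windows. Windows of the same gene can overlap, as for SLC38A9, so they are not all separate promoters. Sites outside the windows, and members with no entry such as SLC7A11, were not searched. TGATGNAA, the core of the amino acid response element, matched in 2 of 57 member windows (3.51%), against 1.99% of 19339 windows of all listed genes. The matches were in 1 of 3 windows of SLC1A5 and 1 of 3 windows of SLC1A3, both reading TGATGCAA. TGACNNNGC, the core of the antioxidant response element, matched in 6 windows (10.5%, against 11.7%), among them SLC3A2 with TGACTCAGC and SLC7A6, which has 2 matches. CACGTG, the E-box bound by MYC and its relatives and read the same on both strands, matched in 8 windows (14.0%, against 7.71%). They belong to SLC7A5, SLC1A5, SLC36A1, SLC43A1, SLC7A8, SLC7A7, SLC6A16 and SLC38A5. No matches of different motifs overlapped in these windows. A match is a description of letters and not of binding.

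**Figure D5:**
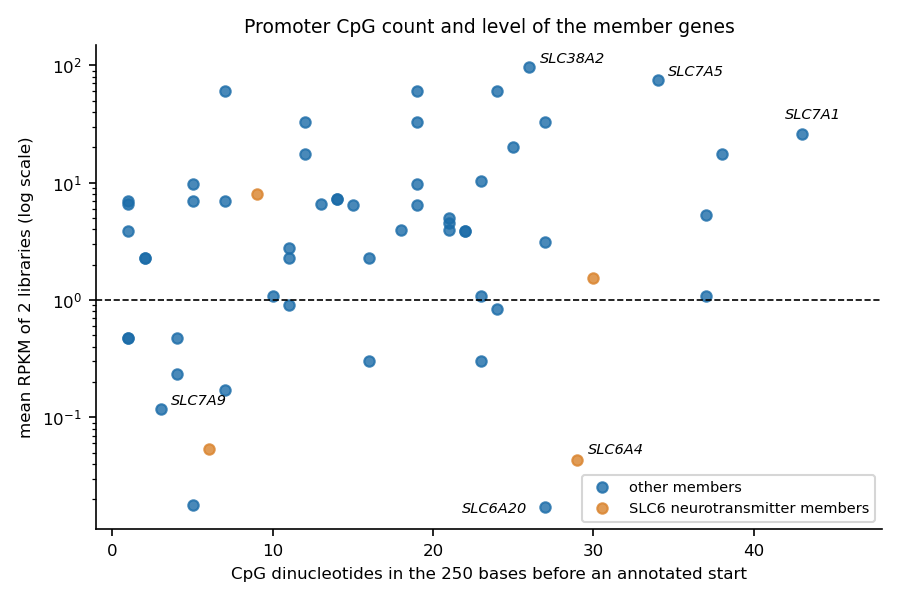
CpG dinucleotides in the 250 bases before each of 57 annotated starts of 35 members, against the mean RPKM of the gene on a log axis; a gene with several starts has several points, and the dashed line marks 1 RPKM. Windows with over 20 CpG dinucleotides are seen from SLC38A2 at 95.6 RPKM to SLC6A20 at 0.0172.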

How the data were processed

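Polyadenylated RNA of aphidicolin-treated U2OS cells was measured in 2 libraries of 1 group. The values the authors deposited are RPKM, per the file headers. The submitters' processing notes name Trim Galore, HISAT2, featureCounts, hg38 and GRCh38.p13, while versions, annotation, strand setting and gene filter remain not given in the sources used here. Rows of the 58 symbols with several rows (194) were left out, and values shared by symbols were counted once, which left 17912 entries.

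Reads were recovered from the RPKM: 1019 genes with equal reads set the totals, ratios of the columns gave the smallest whole reads (relative tolerance 2e-13), and a whole factor brought the length near that in GENCODE release 29. All 47 member lengths were within 10% of GENCODE, which is partly built in. Every entry had at least 1 read in each library. Intervals (95%) and SEs cover counting error only and leave out further variation between the libraries. PCR copies are not separated.

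Medians on a log scale used log2(RPKM + 1). The 2-sided exact binomial test between libraries used entries with at least 10 reads in all, a scaling by the trimmed mean of M values (0.995) and Benjamini-Hochberg adjustment at 0.05. Tested on simulated data of 17912 entries, 200 changed 2-fold, it called 100% of these, and 7.41% of its 216 calls were unchanged genes. That share does not extend to genes of few reads. SLC6A14, with 19 and 9 reads and a log2 ratio of -1.05, had an adjusted p of 0.584 by the exact binomial test. Python 3.11.15, numpy 2.4.6, scipy 1.17.1, pandas 2.3.3 and matplotlib 3.10.9 were used.

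Every member was counted, and 1 of them is not reported by name here. Of each list of amino acid biology the 3 highest genes, those below the level and those that differed between libraries were named. Other list genes, the ratios and the printed sequences were chosen after values were seen. Members and lists were chosen with earlier results of these data known. Alternatives covered the level, scale, scaling and each library alone. Shared exonic bases were counted on either strand.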

Additional observations from a re-analysis of the deposited data

How the results depend on the processing

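No paired analysis was possible because the 2 libraries form 1 group and share no numbers with another. At 5 RPKM the expressed members numbered 18 in place of 28, those outside the neurotransmitter contrast 17 in place of 26, and the contrast 1 in place of 2, by construction of a stricter level. At 0.5 RPKM, 1 CPM, 1 TPM, 10 reads or a mean of 1 RPKM these counts stayed within 1.5 times. The share of all entries expressed (66.7%) was 73.9% at 0.5 RPKM, 42.8% at 5 RPKM, 78.1% at 1 CPM, 81.6% at 1 TPM, 67.9% by the mean, and 67.7% to 67.8% without either replicate. The members' share minus that of all entries (-7.11 percentage points) was negative under each of the 8 alternatives, and was -4.47 at 5 RPKM, -3.60 at 1 CPM and -8.14 to -6.08 without either replicate. Median log2(RPKM + 1) was 2.05 for members, 2.32 outside the contrast and 0.20 for the contrast. With a pseudocount of 0.1 these were 1.70, 2.03 and -2.12, over expressed genes alone 3.03, 3.03 and 2.25, and in TPM 3.97, 4.29 and 0.71, by construction of each scale or filter. SLC3A2 over its partners (0.343) was 0.339 to 0.347 without either replicate. With GENCODE lengths it was 0.342, largely by construction, since the recovered lengths had been brought near those of GENCODE. Lengths of single transcripts were not tried. No member was called different between the libraries under the 4 alternatives of the exact binomial test, of which leaving out the read minimum tested all 47. Of 56 counts of single lists, 52 stayed within 1.5 times. The others were branched-chain breakdown (7, and 4 at 5 RPKM) and neurotransmitter synthesis and vesicle loading (2, and 0 at 5 RPKM, 4 at 1 CPM and 5 at 1 TPM). The 10-read level and the exclusion of members with 10% or more of exonic bases shared, which left 25 expressed, were chosen after seeing the data. Depth limits the 8 members with under 10 reads over both libraries.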
